A study of Mus musculus with 8 samples.

Results

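The protocadherins, the largest group of the cadherin superfamily, were examined in ID8 IP2 mouse ovarian cancer cells with and without an active Notch3 receptor fragment. All gene symbols that start with Pcdh were taken, which gave 71 of the 23284 symbols counted. These were 15 of the alpha cluster (Pcdha), 22 of the beta cluster (Pcdhb), 22 of the gamma cluster (Pcdhg) and 12 non-clustered genes. The 26 genes with at least 10 counts in at least 4 libraries are described here: 9 beta, 10 gamma and 7 non-clustered genes. No alpha gene reached that limit. In Notch3IC cells Pcdh7 was lower, at a log2 fold change of -0.84 that fell short of the limit used here. Pcdh9 was lower in 3 of the 4 matched pairs of lines. Pcdh1 had the largest fitted change of the 26 and was higher in all 4 pairs, though 1 pair hardly differed. Whether Pcdh1, Pcdh20, Pcdhga6 and Pcdhga7 were called higher depended on the fit. Over all libraries, the 19 beta and gamma genes described all had a fitted fold change above 1. Most of these changes were too small or too variable to be called singly.

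Protocadherins are transmembrane proteins with cadherin repeats that bind like molecules on neighbouring cells, weakly compared with classical cadherins. Genes of the 3 clusters lie in tandem, and each starts from its own promoter. In the alpha and gamma clusters every gene has a variable exon of its own that is spliced to constant exons shared by the whole cluster, whereas a beta gene is a single large exon. The clusters are best known for giving neurons individual surface identities. Non-clustered delta protocadherins signal through their cytoplasmic tails and are studied in brain development and as genes altered in carcinomas.

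ID8 IP2 is a subline of ID8, a mouse ovarian surface epithelial line, obtained by passage through C57BL/6 mice, and all lines here also carried a luciferase-mCherry lentiviral vector. Notch3IC lines were infected with a pCCL lentivirus for an HA-tagged Notch3 intracellular domain with IRES-GFP, and Control lines with pCCL alone. Each of Sets 1 to 4 is a matched Control and Notch3IC line from a separate infection, which gave 4 Control and 4 Notch3IC libraries of polyadenylated RNA from cultured cells. The vector, not the endogenous gene, drives the domain in Notch3IC cells, and later testing by the study pointed to mycoplasma in its ID8 IP2 lines. The totals ran from 19013578 to 28208072 counts per Control library and from 15524262 to 27107061 per Notch3IC library.

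Levels are normalized counts, scaled by TMM to the mean effective size of the 8 libraries, and 4 values in a row stand for Sets 1, 2, 3 and 4. Notch3IC was compared with Control by edgeR's quasi-likelihood test over 12430 genes, with Benjamini-Hochberg adjustment over all of them. Called means an adjusted p below 0.1 together with a log2 fold change of 1 or more either way, the study's limits. By this rule 423 genes were called higher and 92 lower. A fit with the matched set as a further term, the replicate block, is given beside it where it changed a call.

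The libraries held to their labels, with Set 2 standing apart. Notch3 had 38.7, 40.6, 70.8 and 42.0 normalized counts in Control and 4322, 467, 9219.9 and 5842 in Notch3IC. It was called higher (log2 fold change 6.69, SE 0.88, adjusted p = 0.0169), and every Notch3IC library lay above every Control library, but that of Set 2 was far below those of the other 3 sets. The Notch targets Hey1 and Heyl, which encode transcriptional repressors, and Nrarp, a feedback inhibitor, were called higher too, with Set 2 lowest among the Notch3IC libraries for each. Hey1 had 438 normalized counts in the Notch3IC library of Set 2 and 4079 to 10642 in the other 3. Nrarp had 221 there against 3839.5 to 6033, and Heyl 215 against 2155 to 6860.2. Results that turn on Set 2 are therefore also given without it.

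Of the 26 protocadherins, none was called higher and 1, Pcdh9, was called lower. Among all genes tested 3.40% were called higher and 0.740% lower. At an unadjusted p below 0.05, 8 protocadherins were higher and 2 lower, beside 11.8% and 6.65% of all genes. Without the limit on fold change, Pcdhb17 and Pcdhga7 passed as higher and Pcdh7 and Pcdh9 as lower, or 7.69% of the 26 in each direction, against 5.0% higher and 1.69% lower among all genes. With the replicate block 4 were called higher, Pcdh1, Pcdh20, Pcdhga6 and Pcdhga7, and Pcdh9 again lower, where 5.19% of all genes were higher and 2.53% lower. Without the fold limit the block gave 10 higher and 2 lower, beside 14.9% and 12.1% of all genes. DESeq2 called Pcdh1 and Pcdhga6 higher and Pcdh9 lower, beside 5.07% and 1.38% of all genes. Without both libraries of Set 2 the calls were Pcdh1, Pcdhga6, Pcdhga7 and Pcdhgc5 higher and Pcdh9 lower, beside 5.36% and 1.83%.

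The direction was uneven between the groups of genes. All 9 beta and all 10 gamma genes had a positive log2 fold change, with medians of 0.57 (range 0.20 to 0.98) and 0.46 (range 0.11 to 1.03). The gamma genes Pcdhga12, Pcdhgb7 and Pcdhgc4 turned negative in some fits that left out a library or set. Of the 7 non-clustered genes 3 were positive and 4 negative, from -1.03 to 1.98. Over all genes tested 48.4% were positive and the median was -0.01. Members of a cluster are neighbours, and gamma genes share exons, so these directions are not independent of each other.

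**Figure D1:**
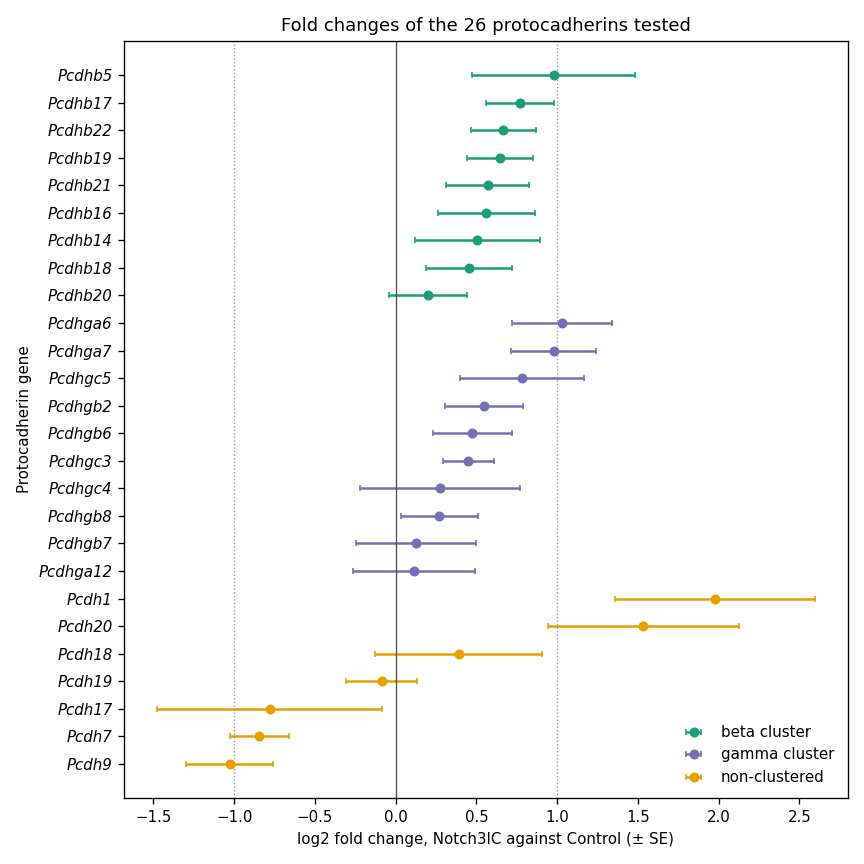
Each point is the log2 fold change of a protocadherin in Notch3IC against Control with its SE (4 libraries per group), coloured by beta cluster, gamma cluster or non-clustered, and dotted lines mark a change of 1 in either direction. The beta and gamma points all lie to the right of 0, up to 1.03, while the non-clustered points run from -1.03 for Pcdh9 to 1.98 for Pcdh1.

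Pcdh7, a delta1 protocadherin of the cell surface, was by its Control mean the most abundant non-clustered member per length, and was lower in Notch3IC in every set. In the GRCm38 annotation it lies on chromosome 5 from 57717967 to 58133230 on the plus strand. It had 4096, 4983, 4286 and 3784 normalized counts in Control and 1989.7, 3312, 1944 and 2306 in Notch3IC. All 4 Notch3IC libraries lay below all 4 Control libraries, with Set 2 the highest of each group. Pcdh7 fell by 0.84 on the log2 scale (SE 0.18, adjusted p = 0.0456), short of the fold limit, and the block gave a log2 fold change of -0.87 (SE 0.11, adjusted p = 0.0197). Of all genes tested, 3.75% lay lower without overlap between the groups. Set by set, the log2 ratios came to -1.04, -0.59, -1.14 and -0.71. Without Set 2 the log2 fold change was -0.96 (adjusted p = 0.00701). Its adjusted p rose above 0.1 without the Control library of Set 3 (0.135) or Set 4 (0.122) or the Notch3IC library of Set 3 (0.125) or Set 4 (0.147), at fold changes of -0.76 to -0.90. Of the exon bases of Pcdh7, 21.1% overlap 4932441J04Rik on the opposite strand, and whether reads were counted by strand is not given in the sources used here. That gene had 20.99 ± 2.16 normalized counts in Control and 14.4 ± 7.27 in Notch3IC (SD, n = 4 each).

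Pcdh9, another delta1 protocadherin, was the only member called in the fit with condition alone. It lies on chromosome 14 from 93013410 to 93890679 on the minus strand. It had 289, 171, 268 and 274 normalized counts in Control and 90.6, 182, 96.6 and 124 in Notch3IC. In Set 2 the pair hardly differed and lay between the groups, while the other 3 Notch3IC libraries were below every Control library. Pcdh9 fell by 1.03 on the log2 scale (SE 0.27, adjusted p = 0.0786), with log2 ratios of -1.67, 0.09, -1.47 and -1.14 within Sets 1 to 4. The block gave the same call (adjusted p = 0.0681), and without Set 2 the log2 fold change was -1.41 (adjusted p = 0.00897). The call was lost without either library of Set 1, 3 or 4, where the adjusted p ran from 0.121 to 0.220 and the log2 fold change from -0.91 to -1.03.

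The promoters of Pcdh7 and Pcdh9, which passed the adjusted p as lower, and of Pcdh20, called higher with the block, are shown because Notch signaling acts through the DNA-binding protein Rbpj and through Hey repressors. The 250 bases before each RefSeq start in GRCm38.p6 were searched on both strands for TGGGAA, letters that Rbpj is known to bind, and for CACGTG and CACGCG, letters that Hey proteins are known to bind. The latter 2 cannot match at the same place. None of the 3 promoters held any of these letters, so nothing stands in capitals, and the stretch of Pcdh7 leaves out bases that lie in an annotated exon.
Pcdh7 (chr5:57717831-57717966, plus strand): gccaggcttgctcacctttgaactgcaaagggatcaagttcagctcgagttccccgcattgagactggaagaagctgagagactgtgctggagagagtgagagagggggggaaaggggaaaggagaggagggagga
Pcdh9 (chr14:93890680-93890929, minus strand): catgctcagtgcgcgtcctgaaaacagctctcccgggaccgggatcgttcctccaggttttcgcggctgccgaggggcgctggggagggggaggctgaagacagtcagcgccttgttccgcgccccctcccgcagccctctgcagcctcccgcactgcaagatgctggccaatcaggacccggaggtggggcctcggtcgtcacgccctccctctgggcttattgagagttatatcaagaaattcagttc
Pcdh20 (chr14:88471397-88471646, minus strand): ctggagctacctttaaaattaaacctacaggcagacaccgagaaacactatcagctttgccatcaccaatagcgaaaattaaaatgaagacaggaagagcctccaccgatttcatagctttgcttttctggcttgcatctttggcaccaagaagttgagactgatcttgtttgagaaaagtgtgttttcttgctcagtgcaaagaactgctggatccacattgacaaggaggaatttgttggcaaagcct
Of 27025 promoters, searched over a window of 250 bases, 21.5% held TGGGAA, 6.05% CACGTG and 7.74% CACGCG. The printed stretch of Pcdh7 is shorter, at 136 bases, but its search covered all 250, which include bases of an annotated exon. The promoter of Pcdh18 held CACGCG at 1 place, and that of Pcdh10, which had at most 1 count, held TGGGAA and CACGCG. The promoters of Pcdh1, Pcdhga6 and Pcdhga7, also called higher with the block, were not analysed here. A match describes letters only, and no match says only that they are not in this window.

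Pcdh1, a protocadherin of airway and other epithelia, was low in Control cells and higher in Notch3IC in every set. Control lines had 31.7, 17.9, 46.9 and 47.6 normalized counts and Notch3IC lines 124, 23.4, 192 and 229.8. The Notch3IC library of Set 2 was within the Control range, and the other 3 were well above it. Before scaling, the pair of Set 2 had 15 counts in Control and 16 in Notch3IC. With condition alone Pcdh1 was not called (log2 fold change 1.98, SE 0.62, 95% interval 0.57 to 3.39, adjusted p = 0.132). The block called it higher (1.84, SE 0.30, adjusted p = 0.0278), as did DESeq2 (adjusted p = 0.0163). So did edgeR without Set 2 (2.11, adjusted p = 0.0135) and without the Notch3IC library of Set 2 alone (2.32, adjusted p = 0.00820). Leaving out Set 1, 3 or 4 from the fit with the block ended the call (adjusted p 0.128 to 0.135).

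Pcdh20, a non-clustered member outside the delta groups, was near the detection limit. It had 16.9, 13.1, 5.74 and 3.96 normalized counts in Control and 47.0, 8.79, 23.9 and 32.9 in Notch3IC. Set 2 went the other way from Sets 1, 3 and 4, and the groups overlapped through it. The log2 fold change was 1.53 (SE 0.59, adjusted p = 0.210) with condition alone and 1.57 (SE 0.52, adjusted p = 0.0918) with the block, which called it higher. The block without Set 1, 3 or 4 did not call it (adjusted p 0.247 to 0.308). Without Set 2 and the block the log2 fold change was 1.97 (adjusted p = 0.108), and without the Notch3IC library of Set 2 alone it was called higher (1.81, adjusted p = 0.0726).

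The other 3 non-clustered genes, all of the delta2 group, were not called in any of the fits above. Pcdh18 had 1983, 598, 529 and 665 normalized counts in Control and 2268, 671, 925 and 1086 in Notch3IC. Notch3IC was the higher of the pair in each set, but the sets differed among themselves by more than the conditions, with both libraries of Set 1 far above the rest. Its log2 fold change was 0.39 (SE 0.52, adjusted p = 0.754) with condition alone and 0.47 (SE 0.13, adjusted p = 0.0653) with the block, which removes such differences between sets. Pcdh19, mutated in a human epilepsy of girls and women, had 1549, 1146, 794 and 959 normalized counts in Control and 1362, 1004, 882 and 939 in Notch3IC. The groups overlapped almost wholly, and the 95% interval of its log2 fold change of -0.09 was -0.59 to 0.42. Pcdh17 had 11.9, 83.6, 18.2 and 19.8 normalized counts in Control and 6.71, 33.7, 20.2 and 16.9 in Notch3IC. Both libraries of Set 2 were the highest of their group, and the log2 fold change of -0.78 (SE 0.70, adjusted p = 0.619) became -0.17 without Set 2.

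**Figure D2:**
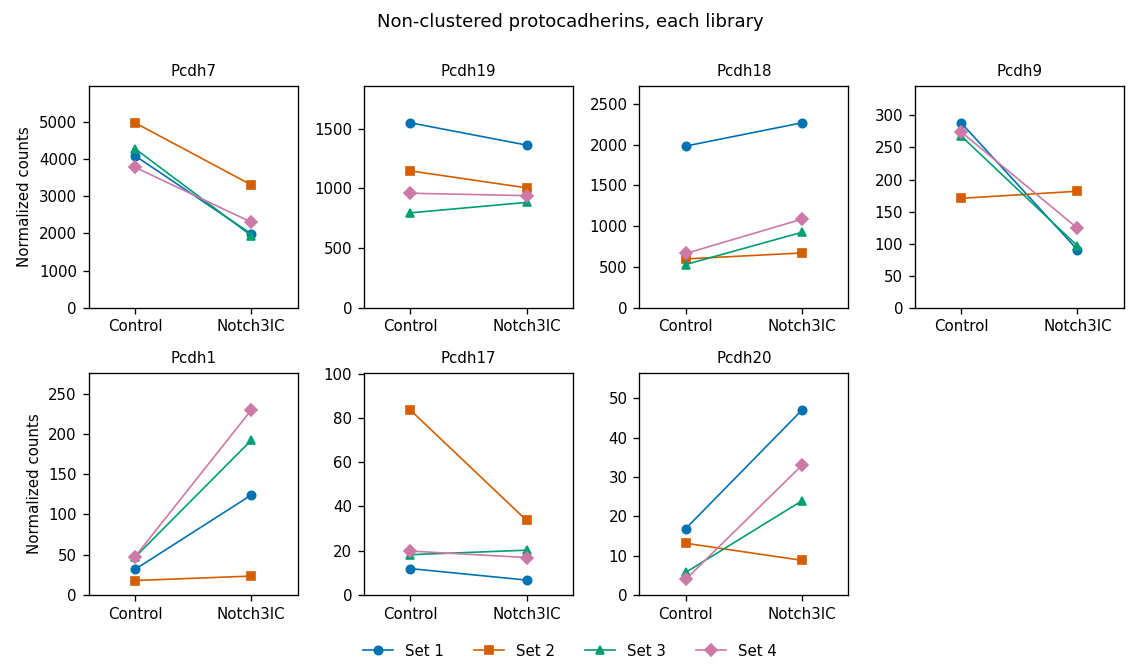
Normalized counts of the 7 non-clustered protocadherins in each library, with a line joining the pair of each set and a vertical axis of its own for each gene. All 4 lines fall for Pcdh7, those of Sets 1, 3 and 4 fall for Pcdh9, and those of Sets 1, 3 and 4 rise for Pcdh1 and Pcdh20 while the line of Set 2 stays nearly flat or falls.

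Per kilobase of annotated exon, mean Control levels ran from Pcdh7 at 404 normalized counts through Pcdh18 at 176, Pcdh19 at 106, Pcdh9 at 36.9, Pcdh1 at 4.10 and Pcdh17 at 2.57 to Pcdh20 at 1.81. In Notch3IC cells Pcdh7 at 225 and Pcdh18 at 231 were level, and Pcdh1 at 16.2 came close to Pcdh9 at 18.2. Over the 4 Control libraries the ranges of neighbours in this order overlapped, except those of Pcdh19 and Pcdh9 and of Pcdh9 and Pcdh1. The other 5 non-clustered genes were at or near 0. Pcdh11x had no count, Pcdh8 1 count in all, and Pcdh10, Pcdh12 and Pcdh15 at most 5 counts in any library.

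The alpha cluster was silent at this depth. Of its 15 symbols, 13 had no count in any library, and the cluster summed to 0 counts in every Control library and to at most 2 in a Notch3IC library. The beta and gamma clusters, its neighbours on chromosome 18, were both read. All 22 beta genes together had between 367 and 768 counts in a library and all 22 gamma genes between 2991 and 7044. Below the limit of description were 13 beta genes, with at most 9 counts in any library, and 12 gamma genes, with at most 13.

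Summed over the 22 beta genes, Control lines had 364, 543, 399 and 369 normalized counts and Notch3IC lines 601, 619.8, 619.8 and 649. Every Notch3IC library lay above every Control library, and the Control library of Set 2 was the closest to them. This separation depended on the scaling. By CPM the groups overlapped, at 23.9 in the Control library of Set 2 and 23.4 in the Notch3IC library of Set 1. The means were 419 ± 84.3 and 622 ± 19.9 (SD, n = 4 each), a log2 ratio of the means of 0.57 that is given as a description without a test. The summed gamma cluster had 2966, 5058, 3293 and 3519 normalized counts in Control and 4365, 5063, 5593 and 5951 in Notch3IC. Here the groups overlapped, because the Control library of Set 2 already stood at the level of the Notch3IC libraries. Set by set, the log2 ratios came to 0.56, 0.00, 0.76 and 0.76, and without Pcdhgc3 they were 0.84, -0.10, 0.95 and 1.16.

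**Figure D3:**
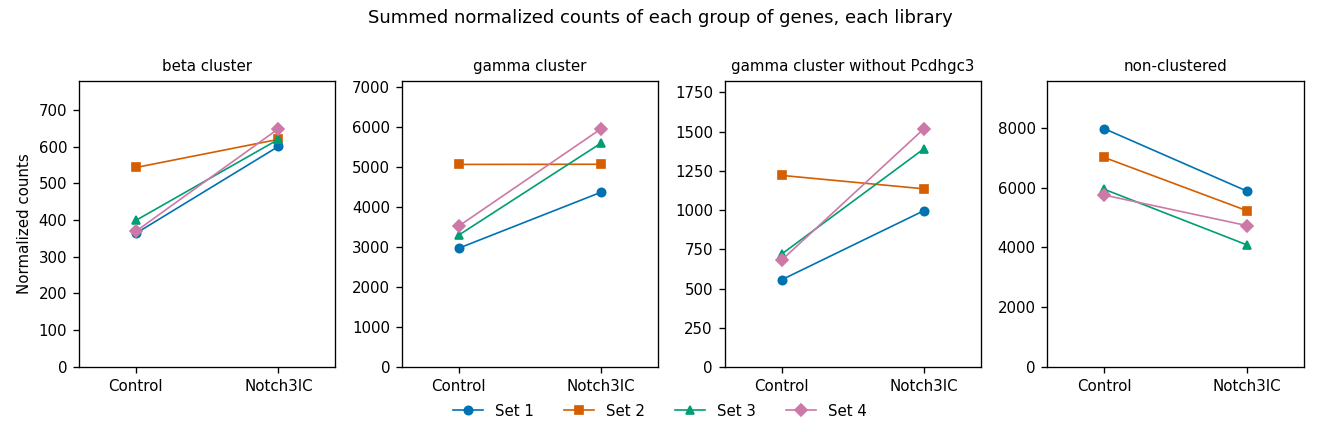
Summed normalized counts of the 22 beta genes, the 22 gamma genes, the gamma genes without Pcdhgc3 and the 12 non-clustered genes in each library, with a line joining the pair of each set. The beta sums run from 364 to 543 in Control and from 601 to 649 in Notch3IC, the gamma line of Set 2 is flat at 5058 and 5063, and the non-clustered sums are lower in Notch3IC in every set.

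The non-clustered sum moved the other way, from 7979, 7015, 5949 and 5755 normalized counts in Control to 5891, 5234, 4089 and 4734 in Notch3IC, mostly through Pcdh7. The make-up of the family shifted with it. Pcdh7 took 36.2% to 44.5% of all protocadherin counts in the Control libraries and 18.3% to 30.3% in the Notch3IC libraries. The 3 clusters together took 29.4% to 44.4% in Control and 45.8% to 60.3% in Notch3IC. Neither share overlapped between the groups. Protocadherins as a whole made up 427 to 556 CPM of the library totals in Control and 422 to 495 CPM in Notch3IC.

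Among the beta genes, Pcdhb17, Pcdhb19 and Pcdhb22 had no overlap between the groups, with all Notch3IC libraries higher. With Pcdhga6 and Pcdhga7 they made 5 of the 26 protocadherins, or 19.2%, against 7.08% of all genes tested. These genes are neighbours in their clusters and not independent, and both shares are for TMM normalized counts. Scaled by library totals alone, Pcdhb17, Pcdhb19 and Pcdhga6 overlapped. For each, the Control library of Set 2 then lay above the Notch3IC library of Set 1. Pcdhb17 had 47.6, 64.5, 56.5 and 47.6 normalized counts in Control and 70.5, 95.2, 94.7 and 107 in Notch3IC (log2 fold change 0.77, SE 0.21, adjusted p = 0.0930, block adjusted p = 0.0443). It was higher in each of the 4 sets, Set 2 included, with ratios of 0.56, 0.56, 0.74 and 1.17. Its adjusted p exceeded 0.1 under RLE (0.102), upper-quartile (0.109) and total-count scaling (0.148) and with no expression filter (0.123), at log2 fold changes of 0.74 to 0.77. It did so too without the Control library of any set (0.102 to 0.262) and without the Notch3IC library of Set 3 or 4 (0.231 and 0.278).

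Pcdhb19, the beta gene with the most counts, had 72.4, 112, 71.8 and 79.3 normalized counts in Control and 117, 154, 119 and 135 in Notch3IC. Its ratios within Sets 1 to 4 were 0.69, 0.45, 0.72 and 0.77, the most even of the beta genes named. It did not pass the adjusted p with condition alone (log2 fold change 0.65, SE 0.21, adjusted p = 0.140) and did with the block (0.66, SE 0.14, adjusted p = 0.0372), in both cases short of the fold limit. DESeq2 passed Pcdhb17 (adjusted p = 0.0147), Pcdhb19 (0.0384) and Pcdhb22 (0.0212), also short of the fold limit. Pcdhb22 had 64.4, 104, 78.5 and 70.6 normalized counts in Control and 134, 111, 138 and 119 in Notch3IC (log2 fold change 0.67, SE 0.20, adjusted p = 0.120, block adjusted p = 0.0655). Its ratio in Set 2 was only 0.10, against 0.75 to 1.05 in the other sets. The annotation shares 6.88% of its exon bases with Pcdhb21, whereas Pcdhb17 and Pcdhb19 share none. The remaining 6 beta genes described had log2 fold changes of 0.20 to 0.98 and adjusted p of 0.285 to 0.730.

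Gamma counts need care, since the annotation places 31.8% to 45.9% of the exon bases of the 10 genes described on the same strand as other genes, mostly as the shared constant exons. Genes annotated on the opposite strand also cover 28.4% of the exon bases of Pcdhgc3, 16.4% of Pcdhgb7, 10.3% of Pcdhga7 and 6.33% of Pcdhga12. How reads of those exons were assigned, and whether by strand, is not given in the sources used here. The row of Pcdhgc3 took 74.5% to 81.3% of all gamma counts in every library, and whether it holds reads of other members' constant exons was not tested. Pcdhgc3 had 2410.4, 3837, 2574 and 2838 normalized counts in Control and 3369, 3927, 4202 and 4432 in Notch3IC. The Control library of Set 2 overlapped the Notch3IC range, and the ratio in that set was 0.03, against 0.48, 0.71 and 0.64 in the others. It was not called (log2 fold change 0.45, SE 0.16, adjusted p = 0.176), and with the block it passed the adjusted p of 0.1 (0.47, SE 0.12, adjusted p = 0.0535) short of the fold limit. Without Set 2 it did so with condition alone (0.62, adjusted p = 0.0474).

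Pcdhga6 and Pcdhga7, adjacent members of the A subfamily, had the largest gamma changes. Pcdhga6 had 45.6, 109, 56.5 and 47.6 normalized counts in Control and 109.6, 132, 121 and 162 in Notch3IC. The Control library of Set 2 came just short of the lowest Notch3IC library, so that the groups did not overlap by a narrow margin. Scaled by library totals alone, they overlapped. Pcdhga6 was not called with condition alone (log2 fold change 1.03, SE 0.31, adjusted p = 0.120) and was called higher with the block (1.10, SE 0.26, adjusted p = 0.0463) and by DESeq2 (adjusted p = 0.0219). Pcdhga7 had 75.4, 149, 89.0 and 69.8 normalized counts in Control and 205, 154, 191 and 203 in Notch3IC. Set 2 again brought the groups close, with a ratio of 0.04 beside 1.10 to 1.53 in the other sets. Pcdhga7 passed the adjusted p but not the fold limit with condition alone (0.98, SE 0.26, adjusted p = 0.0852) and was called higher with the block (1.04, SE 0.27, adjusted p = 0.0569). Total-count scaling ended that pass with condition alone (adjusted p = 0.110), as did leaving out any library of Set 1, 3 or 4 (0.132 to 0.237). Without Set 2 both were called higher, at 1.39 (adjusted p = 0.0202) and 1.35 (adjusted p = 0.00958). Without Set 1, 3 or 4 neither was called, with or without the block: the block's adjusted p was 0.165 to 0.182 for Pcdhga6 and 0.191 to 0.216 for Pcdhga7.

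Pcdhgc5, which like Pcdhgc3 is a C-type isoform, was the gamma gene with the most counts after Pcdhgc3. It had 124, 420.2, 203 and 212 normalized counts in Control and 258, 337, 532 and 519 in Notch3IC. In Set 2 the Control library was the higher of the pair, and the groups overlapped through it. Its log2 fold change was 0.79 (SE 0.38, adjusted p = 0.322) with all libraries and 1.28 (SE 0.35, adjusted p = 0.0834) without Set 2, which called it higher. The remaining 6 gamma genes described had log2 fold changes of 0.11 to 0.55 and adjusted p of 0.274 to 0.914.

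**Figure D4:**
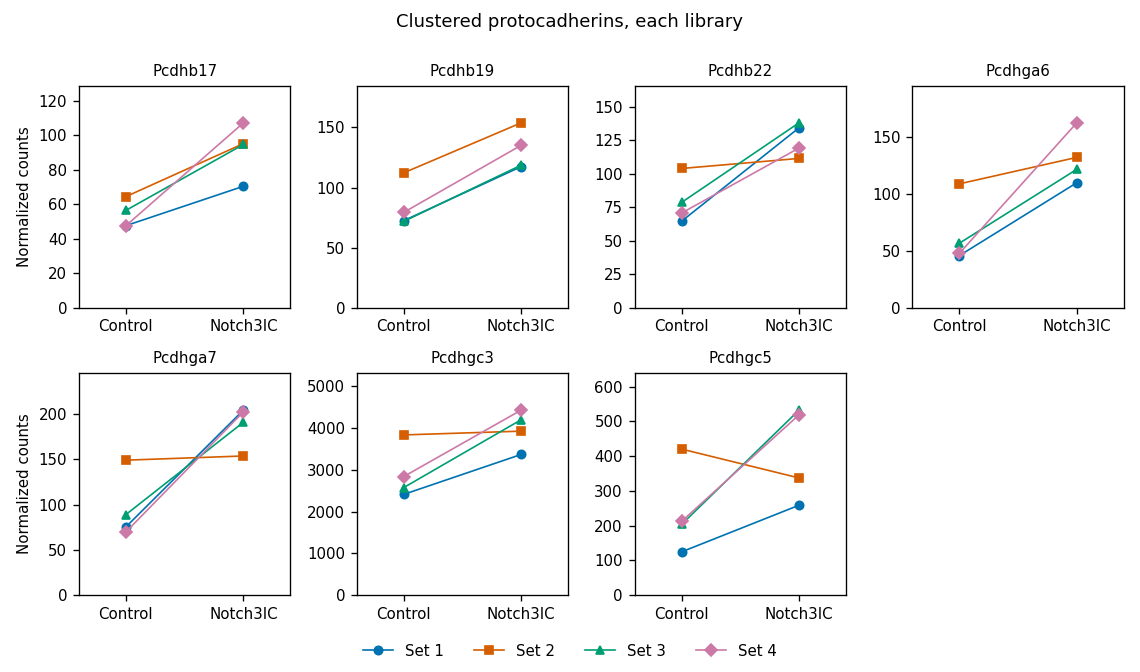
Normalized counts of the beta genes Pcdhb17, Pcdhb19 and Pcdhb22 and the gamma genes Pcdhga6, Pcdhga7, Pcdhgc3 and Pcdhgc5 in each library, with a line joining the 2 libraries of a set. The lines of Sets 1, 3 and 4 rise in each panel, and the Control point of Set 2 is the highest Control point in every panel.

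Set by set, the clusters moved together in 3 of 4 sets. The median log2 ratio of the 9 beta genes was 0.56, 0.10, 0.74 and 0.77 in Sets 1 to 4, with 9, 6, 8 and 9 of them above 0. For the 10 gamma genes it was 0.71, -0.12, 0.73 and 0.94, with 8, 3, 9 and 10 above 0. In Set 2 the clusters thus showed no common shift, whereas over all genes tested the median was between -0.01 and 0.01 in every set. For the 7 non-clustered genes the medians were -0.19, -0.19, 0.15 and -0.03. Each set holds 1 library per condition, so these ratios have no test of their own. Without Set 2, all 8 beta and 10 gamma genes tested stayed positive, with medians of 0.80 and 0.66, and 2 beta and 4 gamma genes passed the adjusted p as higher without the fold limit, beside 8.65% of all genes. Under the same rule Pcdh7 and Pcdh9 passed as lower, beside 4.11%.

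**Figure D5:**
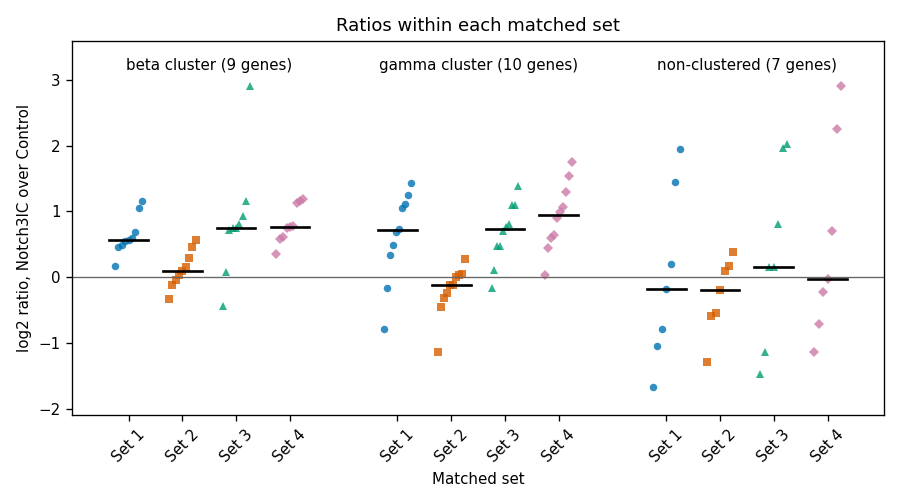
Log2 ratio of Notch3IC over Control within each matched set for every protocadherin described, 1 point per gene, in beta, gamma and non-clustered genes, with a bar at the median. The medians of the beta and gamma genes lie between 0.56 and 0.94 in Sets 1, 3 and 4 and at 0.10 and -0.12 in Set 2.

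Genes that act on or with protocadherins had median changes near 0. All 19 regulators of the clusters were tested, which hold the insulator factor Ctcf, cohesin, Smchd1, DNA methyltransferases and other silencers. None was called in either direction by edgeR, with or without the block, or by DESeq2, at a median log2 fold change of 0.01. Among all genes these fits called 3.40% to 5.19% higher and 0.740% to 2.53% lower. At such shares, no call among 19 genes says little about them. At an unadjusted p below 0.05, 0 were higher and 1 was lower, beside 11.8% and 6.65% of all genes. The 1 was the DNA methyltransferase Dnmt3b (log2 fold change -0.39, SE 0.14, adjusted p = 0.186, block adjusted p = 0.0803), whose groups did not overlap. The most abundant, the cohesin subunit Rad21, had 11937 ± 514 normalized counts in Control and 13099 ± 582 in Notch3IC (SD, n = 4 each; log2 fold change 0.13, adjusted p = 0.472). Of 16 intracellular partners, such as focal adhesion kinase and the WAVE complex, 13 were tested, at a median of 0.05. None was called by the same 3 fits, beside the same shares of all genes, which says as little. At an unadjusted p below 0.05, 0 were lower and 1 was higher, beside 6.65% and 11.8% of all genes. The 1 was the WAVE complex subunit Abi2 (log2 fold change 0.31, SE 0.10, adjusted p = 0.147, block adjusted p = 0.0607). Fitted changes were positive for 7 of the 13 and negative for 6. The partners Abi1 and Wasf1 were lower in each of the 4 sets (log2 fold change -0.21 and -0.24, block adjusted p = 0.0533 and 0.0895). Abi2, Taok2, Ptk2 and Cyfip1 were higher in each of the 4 sets. The last 3 had log2 fold changes of 0.16, 0.22 and 0.13 and block adjusted p of 0.0914, 0.104 and 0.178. The partner with the largest fitted change, the kinase Ptk2b, had 243, 179, 517 and 294 normalized counts in Control and 1028, 125, 1498 and 664 in Notch3IC (log2 fold change 1.43, SE 0.64, adjusted p = 0.283, block adjusted p = 0.103). In Set 2 its Control library was the higher of the pair. The most abundant of these, the phosphatase subunit Ppp1ca, had 20131 ± 1802 and 19941 ± 969 normalized counts (log2 fold change -0.01, adjusted p = 0.968).

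Of 17 other genes of the cadherin superfamily (Fat, Dchs, Celsr, Cdhr and Clstn), 15 were listed and 8 tested, with a median of -0.09. Here 1 was called higher and none lower, beside 3.40% and 0.740% of all genes. The block also called Fat2, with only 1 to 28 counts, and Celsr1 lower (adjusted p = 0.0825 and 0.0747), beside 2.53% of all genes. DESeq2 called Celsr1 lower too (log2 fold change -1.19, adjusted p = 0.0276), beside 1.38%. Fat1, the most abundant, was higher in Notch3IC in each of the 4 sets. It passed the adjusted p with the block, short of the fold limit (log2 fold change 0.39, adjusted p = 0.0288), but not with condition alone (adjusted p = 0.447). The gene called higher was Fat4, a planar polarity receptor. It had 43.6, 89.5, 49.8 and 46.0 normalized counts in Control and 226, 163, 152 and 269 in Notch3IC (log2 fold change 1.83, SE 0.30, adjusted p = 0.0247). The groups did not overlap, and Set 2 again had the highest Control library and the smallest ratio, 0.86.

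Markers of the cell of origin and of other cells moved between the groups as well. Of 10 ovarian surface epithelium and mesothelium markers 8 were tested, all 8 with a negative log2 fold change (median -1.22). The mesothelial antigen Msln was called lower (-2.60, SE 0.63, adjusted p = 0.0625), beside 0.740% of all genes. The block, with 2.53% of all genes lower, called 4 lower, Krt19, Upk3b and Lrrn4 besides Msln. DESeq2, with 1.38% of all genes lower, called Krt7, Krt19, Upk3b and Msln. Their summed level was 23652, 43763, 68404 and 65824 normalized counts in Control and 8128, 28516, 26256 and 20334 in Notch3IC, led by Upk3b in Control and on average by Wt1 in Notch3IC, with Pax8 at no more than 3 counts in any library. Thus the labelled tissue's markers were present but unevenly held. Of 10 fibroblast markers 8 were tested, at a median of 1.08. Beside 3.40% of all genes, 3 were called higher, Fap, Postn and Pdgfrb. The block, with 5.19% of all genes higher, added the collagen genes Col1a1 and Col1a2. Another 2 had negative log2 fold changes, S100a4 (-0.14, adjusted p = 0.920) and the proteoglycan gene Dcn (-0.47, adjusted p = 0.809), which was lower in Notch3IC in each of the 4 sets and with the block had -0.53 (adjusted p = 0.0275). The fibroblast sum was 171663, 130541, 99558 and 75974 normalized counts in Control and 341071, 159918, 205543 and 251359 in Notch3IC, led by Col1a1, with Thy1 at no more than 3 counts. The ID8 IP2 libraries thus held some fibroblast transcripts in Control as well, but not the whole list. In the Control libraries Fap had 0, 5, 2 and 2 counts, Lum 0, 2, 0 and 4, and Postn 64, 11, 8 and 4. In bulk RNA, fewer cells of a type and less RNA per cell cannot be told apart, and the part of these shifts in the protocadherin values was not tested.

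Neural markers were summed too, because clustered protocadherins are neuronal genes. Rbfox3 and Gfap had no count and Stmn2, Elavl3, Elavl4 and Sox10 at most 3 in any library, while Mtap2, which encodes a microtubule protein, was called higher (log2 fold change 1.90, SE 0.18, adjusted p = 0.0116). The neural sum, led by Tubb3 in Control, was 1289, 1103, 1330.4 and 1115 normalized counts in Control and 2461, 1543, 2044 and 2297 in Notch3IC, and 3 of the 10 were tested. Mtap2 carried most of that difference, with means of 276 in Control and 1026 in Notch3IC, while the log2 fold changes of Tubb3 and Syt1 were 0.19 (adjusted p = 0.605) and -0.08 (adjusted p = 0.950). Of the 10 leukocyte markers 3 were tested, Csf1r was called higher (1.52, adjusted p = 0.0719), and Ptprc, Emr1, Cd3e and Itgam had at most 3 counts. Cd68, with 31 to 150 counts, and Cd14, with 29 to 113, had negative log2 fold changes of -0.40 (adjusted p = 0.610) and -0.61 (adjusted p = 0.322), with Notch3IC below Control in each of the 4 sets. The leukocyte sum was 169, 211, 177 and 212 normalized counts in Control and 115, 192, 155 and 182 in Notch3IC. Of the 10 endothelial markers 4 were tested, Esam was called lower (-1.64, adjusted p = 0.0596), and Cdh5, Tie1, Tek, Emcn and Cldn5 had at most 3 counts. The endothelial sum, mostly Esam, was 653, 977, 1229 and 1228 in Control and 211, 371, 564 and 431 in Notch3IC. The other 3 tested had positive log2 fold changes, Pecam1 (9 to 30 counts) of 0.60, Kdr (4 to 22 counts) of 0.51 and Egfl7 of 0.21, with adjusted p of 0.487 to 0.813. Among all genes tested 3.40% were called higher and 0.740% lower. The part of these markers in the protocadherin values was not tested.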

How the data were processed

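Polyadenylated RNA of 4 Control and 4 Notch3IC ID8 IP2 lines was sequenced by the study as single-end reads of 100 bases. Per the labels, the authors used TopHat, Cufflinks and DESeq with build mm9, and deposited raw counts of reads per gene symbol, whole numbers without normalization. Versions, annotation and strand are not given in the sources used here. How a counter treats exons shared by several genes can move reads between gamma genes.

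The counts were fitted with edgeR 4.0.16 (TMM, filterByExpr by condition, robust quasi-likelihood F test) in R 4.3.3. SE is the log2 fold change divided by the square root of F, and 95% intervals use the t distribution of the fit. Ratios within sets use a pseudocount of 0.5. The alternatives were DESeq2 1.42.0, RLE, upper-quartile and total-count scaling, other filters and thresholds, the replicate block, and leaving out each library and set. The block without each set was added after the data were seen. The protocadherins and the gene lists were chosen with earlier results of these data known. Genes named are all non-clustered genes described, clustered genes called in any of 3 fits or without overlap between groups, and the 2 most abundant of each cluster, and in other lists the called genes or else the most abundant. Other list genes, such as Dnmt3b, Abi1, Abi2, Wasf1, Ptk2b and the markers named for their levels, were chosen after their values were seen. So were Ptk2, Cyfip1, Taok2 and Fat1.

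The study describes each set as a matched pair, and over 12430 genes the 2 libraries of a set deviated together, with a correlation of 0.794 for Set 1, 0.408 for Set 2, 0.573 for Set 3 and 0.432 for Set 4. Libraries of different sets gave -0.511 to 0.400. The biological coefficient of variation was 26.3% with condition alone and 14.1% with the block. The fits were also run on simulated data with known changes, whose outcome is not reported here. Of the 71 symbols, 68 matched a single gene of GENCODE on GRCm38, which is not the build of the files, so positions come from that annotation. Promoters are from RefSeq. Figures were drawn with Matplotlib 3.10.9.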

Additional observations from a re-analysis of the deposited data

Results flagged for a closer look

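A library far from the other 3 of its group was sought in 58 groups of 4 values, those of the 26 protocadherins, the summed beta and gamma clusters and the library totals, each in Control and in Notch3IC. There were 4 such values, where chance gives about 1 in 20, or 2.9. Pcdh17 had 83.6 normalized counts in the Control library of Set 2, against 11.9 to 19.8 in the other Control libraries. Pcdhgb6, a gamma gene of the B subfamily, had 319.9 in the same library, against 172 to 192 in the others. Pcdh18 had 1983 in the Control library of Set 1, against 529 to 665. Pcdhgc4 had 8.95 in the Notch3IC library of Set 1, against 34.9 to 39.6. The cause of these values was not tested.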

How the results depend on the processing

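RLE, upper-quartile and total-count scaling, no expression filter and a filter of 10 counts in 4 libraries kept 1 protocadherin called lower, Pcdh9, and none higher. DESeq2 gave 2 higher protocadherins (Pcdh1 and Pcdhga6), with 707 genes higher and 192 lower in all. The replicate block gave 4 higher (Pcdh1, Pcdh20, Pcdhga6 and Pcdhga7), with 645 genes higher and 315 lower, and it ended no call. An adjusted p under 0.05 left 0 lower protocadherins and 48 lower genes. Without the fold limit 2 protocadherins were higher and 2 lower, with 210 genes lower. Leaving out each library or set gave 0 to 4 protocadherins higher and 0 to 2 lower, with 0 to 702 genes higher and 0 to 305 lower. The counts of 0 genes came without Set 3 (lower) and without Set 4 (either way), where 6 and 4 protocadherins had an unadjusted p under 0.05 by edgeR. The replicate block without Set 1 gave 0 lower protocadherins (46 genes higher, 23 lower), without Set 2 it gave 5 higher (904 and 426), without Set 3 again 0 lower (59 and 22) and without Set 4 again 0 lower (129 and 30).

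The direction of 6 protocadherins, none called, depended on 1 library or set. With each left out in turn the log2 fold change ran from -1.15 to 0.19 for Pcdh17, -0.063 to 1.05 for Pcdh18, -0.23 to 0.11 for Pcdh19, -0.12 to 0.29 for Pcdhga12 and -0.22 to 0.43 for Pcdhgb7. With the block, Pcdhga12 was at -0.12 without Set 1, Pcdhgb7 at -0.20 without Set 3 and -0.020 without Set 4, and Pcdhgc4 at -0.051 without Set 4. The causes were not tested. The other 20 kept their direction in all fits that tested them. A pseudocount of 5 turned no median ratio within a set, and CPM scaling no ratio of mean summed levels. The summed gamma level of Set 2, 5058 in Control and 5063 in Notch3IC by TMM, was however 222.8 and 222.6 CPM. The summed beta groups, apart by TMM, overlapped by CPM, at 23.9 in the Control library of Set 2 and 23.4 in the Notch3IC library of Set 1. Pcdhb17, Pcdhb19 and Pcdhga6 singly did so too. At 3 libraries per group few genes were called in all without Set 3 or 4, so a call lost there says little of the gene.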
